A study of Mus musculus with 10 samples.

Results

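The genes described here are 42 genes of mitosis, the stage in which a cell separates its copied chromosomes and divides. They were chosen by symbol from a fixed list of names and make up 42 of the 36172 genes listed in the deposited table. All 42 had values in all 10 libraries and all 42 were tested. The libraries came from cultures of the left atrial appendage of adult C57BL/6 mice aged 8-12 weeks, with 2 sorted libraries for each of 5 cell types. A cells were primary cells grown after a strong digestion with 0.25% trypsin and were sorted as c-kit+/CD45-. B cells were primary cells grown after a weak digestion with 0.05% trypsin and were sorted as c-kit+/CD45+. Both digestions also used 0.1% collagenase D. C1 cells were B-type cells at passage 6, sorted as c-kit+/CD45-. C2 cells were B-type cells at passage 8 and C3 cells at passage 10, both sorted as c-kit-/CD45-. The labels name no allele and no agent beyond the digestion enzymes. They leave unsaid whether both libraries of 1 type stem from different mice or cultures, and whether C1, C2 and C3 were 1 culture followed over time. The p-values therefore measure the spread between these libraries, which may be technical.

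Mitosis is started by cyclin-dependent kinase 1 bound to A- and B-type cyclins. Spindle motors and kinetochore proteins then attach and align the chromosomes, a checkpoint delays their separation until all are attached, and the anaphase-promoting complex marks securin and the B-type cyclins for destruction. Most of these genes are transcribed late in the cell cycle and are nearly silent in resting cells, so their RNA is widely used to mark dividing cells. Many of their promoters hold CCAAT boxes, which bind the factor NF-Y, and a cell cycle genes homology region (CHR), which binds the MuvB complex with its partners.

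Promoter sequences of 5 genes are shown because the members moved together. Each is a RefSeq window of 300 bases on GRCm38.p6, from 250 bases before the start of transcription to 50 after it, read 5′ to 3′ on the strand of the gene. The Plk1 window lies at chr7:122159185-122159484 on the plus strand. The others lie on the minus strand, at chr4:118437294-118437593 for Cdc20, chr9:70421505-70421804 for Ccnb2, chr10:69352863-69353162 for Cdk1 and chr13:100786437-100786736 for Ccnb1. Capitals mark matches on either strand to the CHR (TTTGAA or TTCGAA), the CCAAT box (CCAAT) or E2F forms (TTTCCCGC, TTTCGCGC, TTTGCCGC or TTTGGCGC).
Plk1: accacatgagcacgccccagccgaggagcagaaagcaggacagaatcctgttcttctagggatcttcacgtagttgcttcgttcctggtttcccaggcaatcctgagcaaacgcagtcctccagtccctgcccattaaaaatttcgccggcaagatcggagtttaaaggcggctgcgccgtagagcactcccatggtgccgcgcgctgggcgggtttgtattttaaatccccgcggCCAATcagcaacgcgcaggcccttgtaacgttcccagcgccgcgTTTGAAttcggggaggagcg
Cdc20: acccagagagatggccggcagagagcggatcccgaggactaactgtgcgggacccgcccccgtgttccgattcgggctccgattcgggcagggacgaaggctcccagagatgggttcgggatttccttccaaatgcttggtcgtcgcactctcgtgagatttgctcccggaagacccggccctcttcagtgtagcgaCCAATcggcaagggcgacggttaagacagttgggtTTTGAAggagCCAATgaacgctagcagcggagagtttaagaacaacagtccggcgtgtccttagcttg
Ccnb2: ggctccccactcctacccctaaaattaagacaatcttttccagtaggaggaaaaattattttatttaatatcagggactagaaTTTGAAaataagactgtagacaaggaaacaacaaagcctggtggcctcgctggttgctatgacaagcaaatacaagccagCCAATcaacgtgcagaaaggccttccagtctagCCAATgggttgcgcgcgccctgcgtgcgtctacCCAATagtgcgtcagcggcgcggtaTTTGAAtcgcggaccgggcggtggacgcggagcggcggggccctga
Cdk1: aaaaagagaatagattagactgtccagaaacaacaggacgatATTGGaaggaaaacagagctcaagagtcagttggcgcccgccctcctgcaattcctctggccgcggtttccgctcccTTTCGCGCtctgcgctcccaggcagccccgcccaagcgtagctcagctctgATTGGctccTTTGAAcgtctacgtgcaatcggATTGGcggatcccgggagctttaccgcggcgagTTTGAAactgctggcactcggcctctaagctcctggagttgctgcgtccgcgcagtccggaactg
Ccnb1: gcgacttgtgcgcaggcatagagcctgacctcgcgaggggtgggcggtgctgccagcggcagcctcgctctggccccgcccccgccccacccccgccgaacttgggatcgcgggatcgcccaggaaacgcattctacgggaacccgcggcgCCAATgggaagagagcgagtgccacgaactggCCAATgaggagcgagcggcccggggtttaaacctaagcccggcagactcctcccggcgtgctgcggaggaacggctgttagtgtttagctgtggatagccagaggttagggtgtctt

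Plk1 had 1 CCAAT box, at base -14 from the start, and 1 CHR, at base 31 after it. Cdc20 had CCAAT boxes at -53 and -8 and a CHR at -18. Ccnb2 had 3 CCAAT boxes and 2 CHR matches, 1 of them at base 5 after the start. Cdk1 had 3 CCAAT boxes, 2 CHR matches and the only E2F match among the members, at -131. Ccnb1 had 2 CCAAT boxes and no CHR match.

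RefSeq windows were matched for 36 of the 42 members, all but Aurkb, Ccna2, Foxm1, Incenp, Kif20a and Tpx2. A CHR match stood in 27 of the 36 (75.0%), against 21.7% of the 27025 genes with windows of the same length. A CCAAT box also stood in 27 members (75.0%), against 41.1% of all. Both motifs stood together in 24 members (66.7%), against 8.61% of all, and 19 members (52.8%) had at least 2 CCAAT boxes, against 13.3%. In the shorter window from 150 bases before to 50 after the start, the members' counts for CHR and CCAAT were again 27 and 27, while the shares of all genes were 13.7% and 31.9%. For 5 members (Cdca3, Cdca8, Kif2c, Kif4 and Pttg1) the RefSeq window lies wholly inside the gene as GENCODE vM21 annotates it, so it does not cover the sequence before that 5′ end. The Pttg1 start in RefSeq is 270 bases downstream of that end. Among the other 31 members a CHR match stood in 23 and a CCAAT box in 24. An E2F form stood in 1 member (2.78%) and in 2.6% of all. Matches of different motifs may share end bases, TTCGAA reads the same on both strands, and a match describes only these letters in this window.

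No label states the unit of the values. From the values themselves they were read as log2 of normalised reads relative to each gene's own median over the 10 libraries, so 0 is a gene's median and only differences between libraries have a meaning. The normalised read levels given below rest on the same reading, with a floor of 1 normalised read. The level of a gene was recovered only where more than 1 library shared its lowest value, which was taken as that floor. This was so for 4762 genes and for none of the members. Total counts are not in the table. From the spacing of low values, the relative depth was 0.436 to 0.595 in the 4 A and B libraries, 0.490 to 1.50 in C1 and C2, and 3.86 and 5.03 in C3, a range of 11.5-fold. Among the genes of the sort markers, Ptprc (CD45) stood at 2823 and 2723 normalised reads in B, 6.72 and 82.1 in A, and 1.00 to 1.01 in all C libraries. Kit was highest in A replicate 2 (72.3) and in C1 (35.3 and 66.4), stood at 22.9 and 12.7 in B and at 3.36 in A replicate 1, and reached 1.00 to 3.11 in C2 and C3. A replicate 1, labelled c-kit+, was thus under the 5.04 normalised reads that correspond to 3 reads in that library. Macrophage and monocyte markers, 19 of 20 measured, stood apart in A replicate 2: the 6 with a known level summed to 20.5 and 430.5 reads in A, 24720 and 23820 in B, and 6.07 to 12.6 in the C types. Results against A are therefore also given without each A library. Of 9 cardiomyocyte markers 7 were measured, and the 5 with a known level were all at the floor in both A libraries and summed to at most 54.9 reads, reached in C3.

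A gene was called where limma gave an adjusted p under 0.05 (Benjamini-Hochberg over the 14254 genes tested in that comparison) and a log2 difference of at least 1. Differences are log2 values, first type minus second, ± the standard error of the limma fit on 2 libraries per type. Counts at an unadjusted p under 0.05, and counts under other settings, are given without the share of all tested genes. They cannot be read against the shares printed for the calls.

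The mitosis genes were lowest in C1 and highest in C3. Their median was lowest, at -1.77 and -2.43, in the C1 libraries, stood at -0.44 and -0.47 in B, at 0.14 and -0.12 in A and at 0.32 and 0.42 in C2, and was highest, at 1.97 and 1.94, in C3. The median of all tested genes was within 0.013 of 0 in every library. Of the 42 members, 41 had their lowest mean in C1 and their highest in C3, as did 8.69% of all tested genes. The full order C1, B, A, C2, C3 from low to high was followed by 33 members and by 2.55% of all tested genes. The 9 others were Spc25, Ube2c, Melk, Cdc20, Cdca8, Cenpa, Plk1, Incenp and Pttg1. In these bulk samples, fewer dividing cells and less mitotic RNA per cell cannot be told apart. Relative depth was 0.992 and 1.50 in C1, the lowest type, above that of A and B, and it was greatest in C3, the highest type. The part of depth in the result was not tested.

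**Figure D1:**
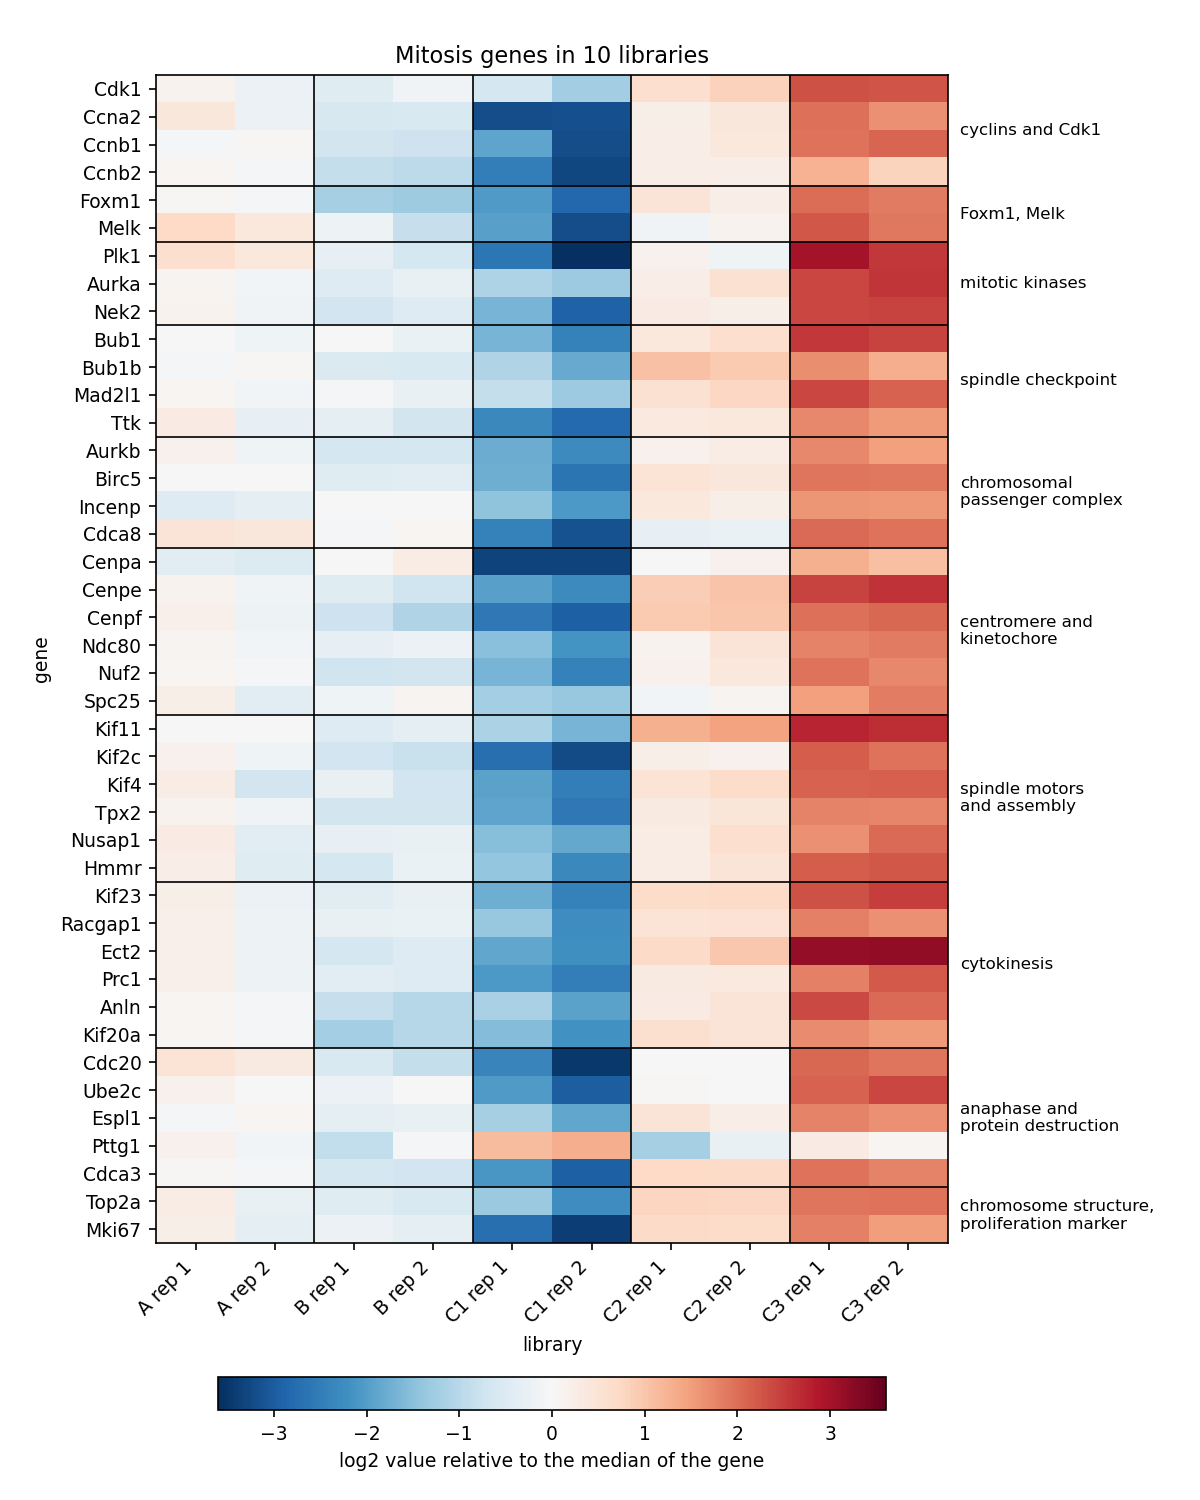
Log2 values of the 42 mitosis genes (rows, grouped by role) in the 10 libraries (columns), each relative to the gene's own median. Both C1 columns are blue and both C3 columns red in every row but that of Pttg1, whose C1 values are 1.14 and 1.31.

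In passage 6 C1 cells, 35 of the 42 members were lower than in primary B cells, 1 was higher and 6 were not called, with a median difference of -1.65. Of all tested genes, 21.1% were called lower and 12.6% higher, with a median of -0.066. C1 and B differ both in passage and in the CD45 sort, which cannot be told apart. The largest falls were those of Cenpa, the centromeric histone (-3.46 ± 0.15, adjusted p = 1.19e-05), the passenger protein gene Cdca8 (-2.79 ± 0.22) and the proliferation marker Mki67 (-2.78 ± 0.27). The 6 genes not called had differences of -0.92 (Mad2l1), -0.91 (Bub1b), -0.84 (Aurka), -0.74 (Kif20a), -0.66 (Cdk1) and -0.61 (Anln). Both C1 libraries lay below both B libraries in 41 members, as they did in 43.7% of all tested genes. Without C1 replicate 2 the count was 29, and without C1 replicate 1 it was 38. All 19 macrophage markers measured were also lower in C1 than in B (median -10.08), as were all 7 endothelial markers tested (median -4.93). Of 17 fibroblast markers 5 were higher and 5 lower (median -0.35). The part of these markers in the result was not tested.

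Against A cells, which share the c-kit+/CD45- sort with C1, 40 of 42 members were lower in C1 and 1 was higher, with a median of -2.07 (all tested genes: 16.6% lower, 10.1% higher, median -0.038). C1, as B-type cells, and A differ in the primary culture and in passage, which cannot be told apart. The largest falls were those of Plk1 (-3.60 ± 0.34), Cdc20 (-3.35 ± 0.33) and Ccna2 (-3.27 ± 0.23), each with an adjusted p of at most 0.000526. Cdk1 was the member not called (-0.90 ± 0.24, adjusted p = 0.023). Without A replicate 1 the count of lower members was 38, with Mad2l1 (-0.98) and Spc25 (-0.90) under the minimum difference, and without A replicate 2 it was 41. Without either A library no member was called higher. Both C1 libraries lay below both A libraries in 41 members (36.5% of all tested genes) and above them in 1, Pttg1 (34.2% of all). With a limma fit on only the 4 libraries of A and C1, the count of members called lower was 27. The 13 calls lost had adjusted p from 0.0515 to 0.0826. Also lower in C1 than in A were 5 of 7 endothelial markers (median -4.66), 10 of 17 fibroblast markers (median -1.70) and 7 of 19 macrophage markers (median -2.44), and their part in the result was not tested.

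From C1 at passage 6 to C2 at passage 8, 41 members rose and 1 fell, with a median difference of 2.56 (all tested genes: 12.2% higher, 8.18% lower, median 0). C1 and C2 differ both in passage and in the c-kit sort, which cannot be told apart. Cenpf, a kinetochore protein, rose by 3.74 ± 0.20, Mki67 by 3.73 ± 0.27 and Ccna2, cyclin A, by 3.48 ± 0.23. The smallest rises were those of Spc25 (1.30 ± 0.24), Aurka (1.61 ± 0.17) and Cdk1 (1.65 ± 0.24). Both C2 libraries lay above both C1 libraries in 41 members and in 36.9% of all tested genes. Of 17 fibroblast markers 6 were higher in C2 than in C1 and 3 lower (median 0.74). Of 7 endothelial markers 3 were higher and 0 lower. The part of these markers in the result was not tested.

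From C2 to C3 at passage 10, 38 members rose further and none fell, with a median of 1.56 (all tested genes: 11.6% higher, 16.2% lower, median 0). At an unadjusted p under 0.05 limma gave 41 higher and 0 lower. Plk1 rose most (2.77 ± 0.34), ahead of Ect2 (2.35 ± 0.20) and Ube2c (2.25 ± 0.29). Not called were Bub1b (0.48 ± 0.25, adjusted p = 0.161), Ccnb2 (0.79 ± 0.27, adjusted p = 0.0491), Pttg1 (0.90 ± 0.37, adjusted p = 0.0855) and Mki67 (0.97 ± 0.27, adjusted p = 0.0255). Ccnb2 and Mki67 were under the minimum difference of 1. All 42 members had both C3 libraries above both C2 libraries, against 38.1% of all tested genes. In the same comparison 15 of 17 fibroblast markers were lower in C3 (median -3.14), with a mean over the list of 0.34 and 0.24 in C2 and -2.58 and -3.20 in C3, and their part in the result was not tested.

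Over the whole span from C1 to C3, 41 members were higher and 1 lower, with a median of 4.16, a ratio of 17.8 (all tested genes: 17.1% higher, 17.7% lower). Passage and the c-kit sort differ together between C1 and C3 too, and cannot be told apart. Plk1 rose 58.4-fold (5.87 ± 0.34, adjusted p = 3.18e-05), Ect2 37.3-fold (5.22 ± 0.20) and Kif2c, a microtubule-depolymerising kinesin, 32.5-fold (5.02 ± 0.20). The smallest rises among the 41 were those of Bub1b (7.60-fold), Spc25 (7.83-fold) and Cdk1 (9.32-fold). Of 17 fibroblast markers 10 were lower in C3 than in C1 and 1 higher (median -1.735). Of 7 endothelial markers 2 were higher and 1 lower, and of 19 macrophage markers 0 were higher and 2 lower. Of 3 cardiomyocyte markers tested 2 were higher and 0 lower, and of 6 smooth muscle markers 1 was higher and 0 lower. The part of these markers in the result was not tested. C3 cells also exceeded primary B cells: 41 members were higher, none lower, and the median was 2.49 (all tested genes: 16.7% higher, 24.7% lower). At an unadjusted p under 0.05 limma also gave 41 higher and 0 lower there. C3 and B differ in passage and in the c-kit and CD45 sort, which cannot be told apart. Ect2 (3.72 ± 0.20), Plk1 (3.23 ± 0.34) and Foxm1 (3.18 ± 0.25) led, while Cenpa (1.07 ± 0.15), Incenp (1.57 ± 0.21) and Spc25 (1.69 ± 0.24) rose least. Both C3 libraries lay above both B libraries in all 42 members and in 39.8% of all tested genes, and above both C1 libraries in 41 members and in 40.8%. The Cenpa call was lost without B replicate 1 (0.92) and without C3 replicate 1 (0.97), both under the minimum difference. Against B, 19 of 19 macrophage markers (median -11.44), 12 of 17 fibroblast markers (median -2.76) and 6 of 7 endothelial markers (median -4.09) were lower in C3. In the same lists 1 fibroblast and 1 endothelial marker were higher, and the part of these markers in the result was not tested. The comparisons of C3 with C1, C2 and B share the C3 libraries, and those of C1 share the C1 libraries, so they are not independent of each other.

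**Figure D2:**
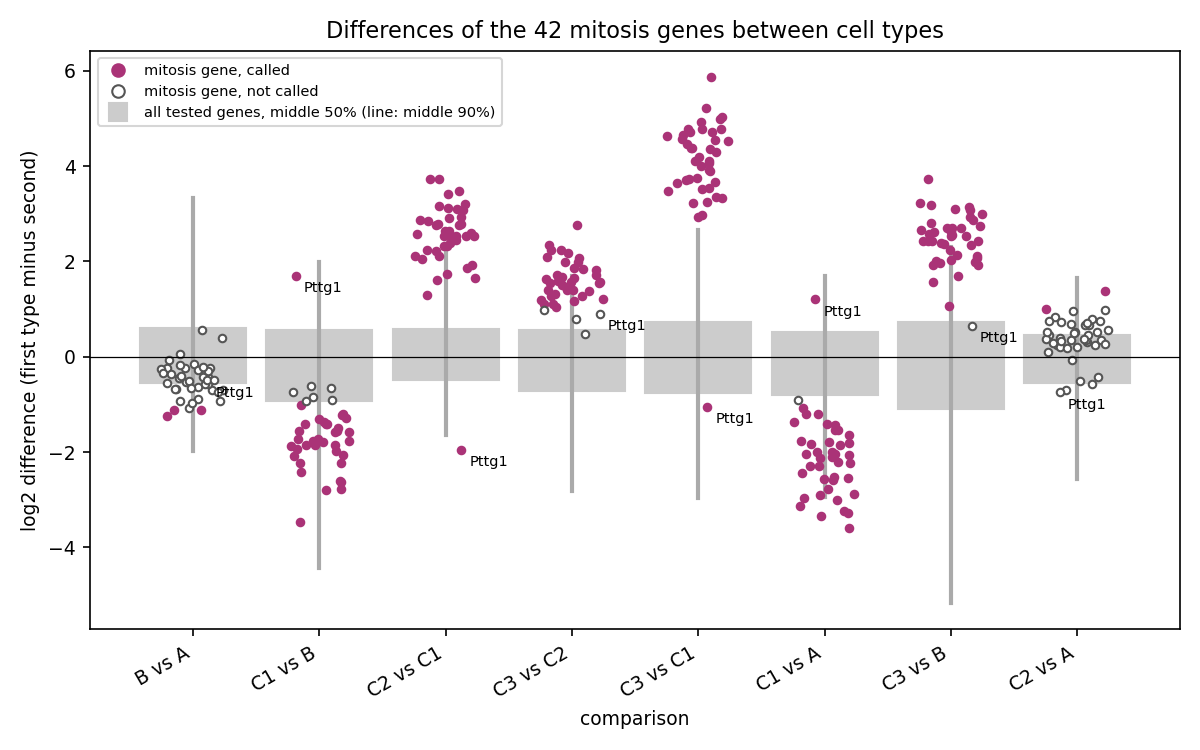
Log2 difference of each of the 42 mitosis genes (points; filled where called) in 8 comparisons of cell types, over the middle 50% (box) and middle 90% (line) of all 14254 tested genes. Filled points lie below 0 in C1 against B and A and above 0 in C2 against C1 and in C3 against C2, C1 and B, with Pttg1 on the opposite side in C1 against B, C2 against C1, C3 against C1 and C1 against A.

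The primary cell types differed less. A and B differ in the strength of the digestion and in the CD45 sort, which cannot be told apart. In B against A, 3 members were lower, none higher and 39 were not called, with a median of -0.49, while 12.4% of all tested genes were called lower and 14.5% higher. At an unadjusted p under 0.05 limma gave 1 higher and 16 lower, without a share of all tested genes at that threshold. The called members were Foxm1 (-1.24 ± 0.25, adjusted p = 0.00746), Kif20a (-1.12 ± 0.21, adjusted p = 0.00612) and Cdc20 (-1.12 ± 0.33, adjusted p = 0.0336). The share of members called lower, 3 of 42, was below that of all genes. Both B libraries lay below both A libraries in 30 members, against 33.7% of all tested genes. The Cdc20 call was lost without any of the 4 A and B libraries and without any of the 4 C2 and C3 libraries (adjusted p 0.0563 to 0.154). The count was 2 without A replicate 1 and 3 without A replicate 2. All 19 macrophage markers measured were higher in B than in A (median 7.50) and 13 of 17 fibroblast markers lower (median -1.71), and their part in these differences was not tested.

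Few members were called between C2 cells, at passage 8, and primary A cells. C2, as B-type cells, and A differ in the primary culture, in passage and in the c-kit sort, which cannot be told apart. In C2 against A, 2 members were higher, 40 were not called and none was lower, with a median of 0.39 (all tested genes: 7.75% higher, 10.6% lower). At an unadjusted p under 0.05 limma gave 14 higher and 1 lower, without a share of all tested genes at that threshold. The called genes were Kif11 (1.38 ± 0.19, adjusted p = 0.00235) and Bub1b (1.00 ± 0.25, adjusted p = 0.0236). Both C2 libraries lay above both A libraries in 32 members and in 31.1% of all tested genes. The count was 5 without A replicate 1, 1 without A replicate 2 and 1 without C2 replicate 2, and the Bub1b call was lost without any of the A and C2 libraries (adjusted p 0.0502 to 0.0983). Lower in C2 than in A were 5 of 7 endothelial markers (median -3.99), 9 of 17 fibroblast markers (median -1.30) and 8 of 19 macrophage markers (median -3.22), and their part in these differences was not tested.

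The engine of mitotic entry is Cdk1 with cyclin A (Ccna2) and cyclins B (Ccnb1, Ccnb2). Cdk1 stood at 0.12 and -0.20 for A, at -0.45 and -0.12 for B, at -0.63 and -1.25 for C1, at 0.59 and 0.83 for C2, and at 2.28 and 2.28 for C3. Its C1 libraries were low but close to B, and its C3 libraries were equal at the second decimal. Ccnb1 stood at -0.047 and 0.047 for A, at -0.66 and -0.73 for B, at -1.90 and -3.19 for C1, at 0.24 and 0.37 for C2, and at 1.95 and 2.08 for C3. Ccna2 stood at 0.41 and -0.21 for A, at -0.59 and -0.55 for B, at -3.18 and -3.16 for C1, at 0.21 and 0.40 for C2, and at 1.99 and 1.65 for C3. Both cyclins showed a deeper low point in C1 than Cdk1 did: C1 minus B was -2.60 ± 0.23 for Ccna2 and -1.85 ± 0.37 for Ccnb1, against -0.66 ± 0.24 for Cdk1 (adjusted p = 0.0582). From C1 to C3, all 4 genes rose, by 3.22 to 4.99, and 3 of the 4 rose from C2 to C3. The Ccnb1 rise from C2 to C3 (1.71 ± 0.37) was lost without C2 replicate 1 (adjusted p 0.0515) and without C3 replicate 2 (adjusted p 0.0518). The 2 C1 libraries of Ccnb1 were far apart, and no C1 value reached that of any other library.

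Foxm1 encodes a transcription factor that switches on genes of the mitotic phase, and Melk a kinase made in dividing cells. Foxm1 stood at 0.035 and -0.035 for A, at -1.20 and -1.28 for B, at -2.05 and -2.82 for C1, at 0.46 and 0.23 for C2, and at 2.01 and 1.87 for C3. It was already lower in B than in A, and no A library overlapped a B library. It fell further in C1 (-1.19 ± 0.25, adjusted p = 0.00655), a call lost without C1 replicate 2 (-0.81), and with quantile normalisation (-0.96). It then rose 6.84-fold to C2 and 3.03-fold to C3. Melk rose by 4.65 ± 0.42 from C1 to C3. Its B minus A difference of -1.06 did not pass (adjusted p = 0.0834).

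Among the mitotic kinases, Plk1, which acts at centrosomes, kinetochores and the cleavage site, had the widest range of all 42 genes. Plk1 stood at 0.62 and 0.39 for A, at -0.30 and -0.62 for B, at -2.61 and -3.58 for C1, at 0.16 and -0.16 for C2, and at 3.0 and 2.54 for C3. The C3 libraries were the highest and the C1 libraries the lowest, with no overlap with another type. Aurka, the spindle pole kinase, stood at 0.10 and -0.10 for A, at -0.46 and -0.28 for B, at -1.10 and -1.32 for C1, at 0.25 and 0.55 for C2, and at 2.42 and 2.59 for C3. It fell less in C1 than Plk1 and rose by 3.71 ± 0.17 from C1 to C3, of which 2.10 ± 0.17 came after C2. Nek2, a kinase of centrosome separation, rose by 4.71 ± 0.36. All 3 kinases rose in both steps, from C1 to C2 and from C2 to C3.

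**Figure D3:**
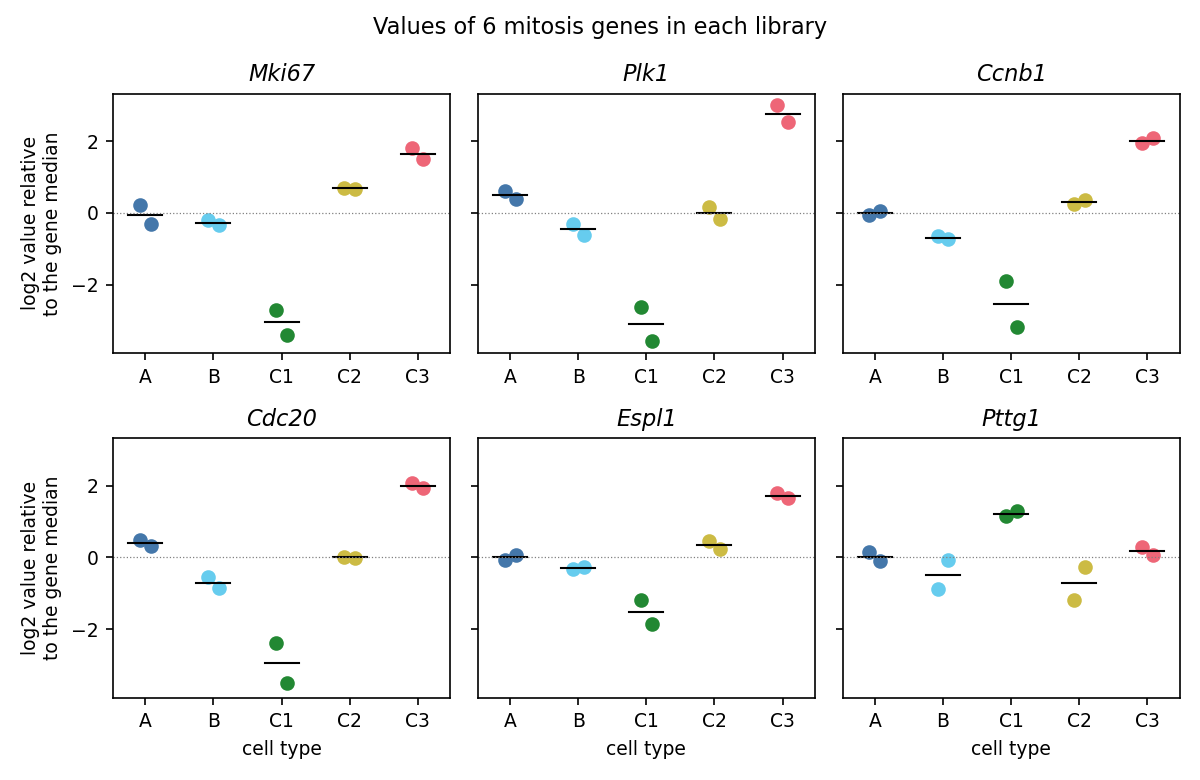
Log2 value relative to the gene median of 6 mitosis genes in each of the 10 libraries (points; line, mean of 2). Plk1, Mki67, Ccnb1, Cdc20 and Espl1 are lowest in C1 and highest in C3, while Pttg1 is highest in C1.

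The spindle checkpoint genes Bub1, Bub1b, Mad2l1 and Ttk hold back chromosome separation until every kinetochore is attached. Bub1 stood at 0.013 and -0.15 for A, at -0.013 and -0.25 for B, at -1.68 and -2.43 for C1, at 0.37 and 0.60 for C2, and at 2.53 and 2.43 for C3. Mad2l1 stood at 0.060 and -0.10 for A, at -0.060 and -0.27 for B, at -0.86 and -1.32 for C1, at 0.56 and 0.74 for C2, and at 2.41 and 2.13 for C3. Bub1b stood at -0.039 and 0.039 for A, at -0.51 and -0.54 for B, at -1.07 and -1.81 for C1, at 1.06 and 0.94 for C2, and at 1.66 and 1.31 for C3. All 4 genes rose from C1 to C2 and 3 of 4 rose from C2 to C3. Bub1b was the exception: its C2 libraries, at 1.06 and 0.94, were already close to its C3 libraries. Bub1 and Ttk fell from B to C1, with differences of -1.93 ± 0.25 and -2.05 ± 0.25, while Bub1b and Mad2l1 did not pass the minimum difference there. The Mad2l1 difference between C1 and A (-1.07 ± 0.20) was under the minimum without A replicate 1 (-0.98), without C1 replicate 2 (-0.83) and with quantile normalisation (-0.98).

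The chromosomal passenger complex corrects faulty attachments and later works at the cleavage site. It joins the kinase Aurkb to Birc5 (survivin), Incenp and Cdca8 (borealin). Aurkb stood at 0.16 and -0.16 for A, at -0.63 and -0.62 for B, at -1.77 and -2.30 for C1, at 0.16 and 0.26 for C2, and at 1.74 and 1.48 for C3. Birc5 stood at -0.013 and 0.013 for A, at -0.44 and -0.39 for B, at -1.77 and -2.62 for C1, at 0.49 and 0.40 for C2, and at 1.93 and 1.91 for C3. Incenp stood at -0.45 and -0.32 for A, at -0.014 and 0.014 for B, at -1.45 and -2.07 for C1, at 0.39 and 0.20 for C2, and at 1.59 and 1.56 for C3. In these 3 genes, both C1 libraries were below all others and both C3 libraries above all others. Cdca8 stood at 0.47 and 0.41 for A, at -0.075 and 0.075 for B, at -2.44 and -3.14 for C1, at -0.29 and -0.23 for C2, and at 2.03 and 1.95 for C3. All 4 subunits fell from B to C1, and all 4 rose from C1 to C2 and from C2 to C3. Cdca8 differed in where A and C2 stood: its A libraries were above its C2 libraries, a difference of -0.70 ± 0.22 (C2 minus A, adjusted p = 0.0543).

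At centromeres and kinetochores, Cenpa replaces histone H3, Cenpe and Cenpf link chromosomes to microtubules, and Ndc80, Nuf2 and Spc25 are subunits of the complex that grips microtubule ends. Cenpa stood at -0.37 and -0.49 for A, at -0.019 and 0.27 for B, at -3.34 and -3.32 for C1, at 0.019 and 0.16 for C2, and at 1.29 and 1.09 for C3. It had the deepest fall of all members from B to C1, and the 2 C1 libraries were nearly equal. Ndc80 stood at 0.089 and -0.089 for A, at -0.28 and -0.22 for B, at -1.49 and -2.16 for C1, at 0.12 and 0.45 for C2, and at 1.80 and 1.87 for C3. Spc25 stood at 0.22 and -0.40 for A, at -0.15 and 0.10 for B, at -1.23 and -1.38 for C1, at -0.10 and 0.11 for C2, and at 1.48 and 1.85 for C3. Cenpf stood at 0.18 and -0.18 for A, at -0.76 and -1.08 for B, at -2.58 and -2.95 for C1, at 0.95 and 1.00 for C2, and at 1.97 and 2.06 for C3. All 6 genes of this role fell from B to C1 and rose in both later steps. Spc25 covered the smallest range of the 3 named complex subunits, 2.97 ± 0.24 from C1 to C3, against 3.66 ± 0.23 for Ndc80 and 3.90 ± 0.25 for Nuf2. The rise of Cenpf from C2 to C3 (1.04 ± 0.20) was just under the minimum without C3 replicate 2 (0.999), its fall to C1 from B and its rise to C2 being much larger. The call of Nuf2 between C1 and B (-1.36 ± 0.25) was lost without C1 replicate 2 (-0.98).

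Spindle motors and assembly factors included Kif11, the motor that pushes spindle poles apart, and Tpx2, which activates Aurka on the spindle. Kif11 stood at -0.00027 and 0.00027 for A, at -0.45 and -0.35 for B, at -1.15 and -1.66 for C1, at 1.29 and 1.46 for C2, and at 2.73 and 2.65 for C3. Its C2 libraries were well above all A and B libraries. Tpx2 stood at 0.13 and -0.13 for A, at -0.66 and -0.67 for B, at -1.90 and -2.57 for C1, at 0.31 and 0.43 for C2, and at 1.79 and 1.75 for C3. Kif2c stood at 0.16 and -0.16 for A, at -0.69 and -0.80 for B, at -2.72 and -3.21 for C1, at 0.21 and 0.16 for C2, and at 2.17 and 1.94 for C3. All 6 genes of this role, with Kif4, Nusap1 and Hmmr, fell from B to C1, with differences from -2.22 (Kif2c) to -1.0 (Kif11). All 6 then rose to C2 by 2.12 to 3.15 and to C3 by a further 1.32 to 1.87. The Kif11 fall lay at the minimum difference and was lost with library medians set to 0 (-0.99), with quantile normalisation (-0.88), without B replicate 2 (-0.95) and without C1 replicate 2 (-0.75). The Hmmr fall (-1.42 ± 0.35) was lost without B replicate 2 (adjusted p 0.0787) and without C1 replicate 2 (adjusted p 0.0654), and the Kif4 rise from C2 to C3 (1.57 ± 0.34) without C2 replicate 1 (adjusted p 0.053).

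Cytokinesis genes build the cleavage site: Kif23 and Racgap1 form centralspindlin, which recruits Ect2, the activator of RhoA, while Prc1 bundles the central microtubules. Kif23 stood at 0.22 and -0.22 for A, at -0.37 and -0.26 for B, at -1.76 and -2.43 for C1, at 0.66 and 0.68 for C2, and at 2.28 and 2.48 for C3. Racgap1 stood at 0.20 and -0.20 for A, at -0.26 and -0.23 for B, at -1.36 and -2.24 for C1, at 0.49 and 0.53 for C2, and at 1.83 and 1.64 for C3. Ect2 stood at 0.18 and -0.18 for A, at -0.64 and -0.45 for B, at -1.87 and -2.22 for C1, at 0.69 and 0.97 for C2, and at 3.15 and 3.20 for C3. Ect2 reached the highest C3 values of any member, and its 2 C3 libraries were nearly equal. Kif20a, a kinesin of the central spindle, stood at 0.059 and -0.059 for A, at -1.22 and -1.03 for B, at -1.55 and -2.17 for C1, at 0.57 and 0.48 for C2, and at 1.71 and 1.54 for C3. Its B libraries were low, between A and C1, so that it fell from A to B but was not called between B and C1. Anln, an actin-binding scaffold, had the same shape, with -0.93 ± 0.26 for B minus A and -0.61 ± 0.26 for C1 minus B, neither of them called. All 6 genes rose from C1 to C2 by 1.92 to 2.87 and from C2 to C3 by 1.10 to 2.35. The Racgap1 rise from C2 to C3 (1.22 ± 0.29) was lost without C2 replicate 1, C2 replicate 2 or C3 replicate 1 (adjusted p 0.052 to 0.0685).

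Anaphase is triggered when Cdc20 activates the anaphase-promoting complex, which works with the ubiquitin-conjugating enzyme Ube2c to destroy securin (Pttg1) and so free separase (Espl1), the protease that cuts the rings holding sister chromatids. Cdc20 stood at 0.50 and 0.33 for A, at -0.56 and -0.86 for B, at -2.38 and -3.49 for C1, at 0.019 and -0.019 for C2, and at 2.07 and 1.93 for C3. Ube2c stood at 0.15 and -0.0042 for A, at -0.20 and 0.0019 for B, at -2.05 and -2.97 for C1, at 0.035 and -0.0019 for C2, and at 2.13 and 2.39 for C3. Espl1 stood at -0.067 and 0.067 for A, at -0.33 and -0.28 for B, at -1.20 and -1.87 for C1, at 0.46 and 0.23 for C2, and at 1.80 and 1.64 for C3. Cdc20, Ube2c, Espl1 and Cdca3 fell from B to C1, with differences from -2.41 (Ube2c) to -1.23 (Espl1), and all 4 rose in both later steps. The Espl1 fall was under the minimum without C1 replicate 2 (-0.89), and the Cdca3 rise from C2 to C3 (1.18 ± 0.26) was lost without C3 replicate 1 (adjusted p 0.0585).

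Pttg1, the inhibitor of separase, ran the other way. Pttg1 stood at 0.14 and -0.11 for A, at -0.89 and -0.062 for B, at 1.14 and 1.31 for C1, at -1.19 and -0.26 for C2, and at 0.30 and 0.062 for C3. Both C1 libraries were above the other 8, and the 2 B libraries and the 2 C2 libraries were each far apart. It was higher in C1 than in B by 1.70 ± 0.37, a ratio of 3.25 (adjusted p = 0.00761), and lower in C2 than in C1 (-1.95 ± 0.37, adjusted p = 0.00753). Both of these calls were kept on leaving out any 1 library. It was also higher in C1 than in A (1.21 ± 0.37, adjusted p = 0.0346) and lower in C3 than in C1 (-1.05 ± 0.37, adjusted p = 0.0478). These 2 calls were each lost without either A, either C1 or either C3 library, with adjusted p from 0.056 to 0.136 for C1 against A and from 0.0548 to 0.179 for C3 against C1. The call between C3 and C1 was also lost with no filter on low values (adjusted p 0.0642) and with a robust prior (adjusted p 0.0505). C3 and B were not called different (0.66 ± 0.37, adjusted p = 0.164). In the annotation no other gene overlaps Pttg1. The RNAs of separase and its inhibitor moved in opposite directions between C1 and C2, with differences of 1.87 ± 0.23 for Espl1 and -1.95 ± 0.37 for Pttg1.

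Top2a untangles sister DNA molecules before anaphase, and Mki67 (Ki-67) coats mitotic chromosomes and is the standard marker of dividing cells. Top2a stood at 0.27 and -0.27 for A, at -0.43 and -0.54 for B, at -1.33 and -2.23 for C1, at 0.76 and 0.75 for C2, and at 1.92 and 1.97 for C3. Mki67 stood at 0.21 and -0.31 for A, at -0.21 and -0.33 for B, at -2.71 and -3.40 for C1, at 0.70 and 0.66 for C2, and at 1.81 and 1.50 for C3. Both C1 libraries of Mki67 were below all others, and both C2 libraries were above all A and B libraries. Mki67 rose 13.3-fold from C1 to C2 and 1.96-fold from C2 to C3, the latter under the minimum difference. Top2a fell from B to C1 (-1.30 ± 0.31), a call lost without B replicate 1 (adjusted p 0.0584) and without C1 replicate 2 (-0.85). Its rise from C2 to C3 (1.19 ± 0.31) was lost on leaving out any C2 or C3 library (adjusted p 0.0701 to 0.0813).

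The rise from C1 to C3 was divided unevenly between its steps. Without Pttg1, the step from C1 to C2 made up 43.4% (Aurka) to 83.5% (Bub1b) of a member's log2 rise, with a median of 61.6%. The genes with the largest early share were Bub1b (83.5%), Ccnb2 (79.9%), Mki67 (79.3%) and Cenpf (78.2%), and those with the smallest were Aurka (43.4%), Spc25 (43.9%), Anln (51.3%) and Cdk1 (51.4%). These shares are a description of the same differences and were not tested between genes.

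The 2 C1 libraries differed from each other in the members. C1 replicate 2 was below C1 replicate 1 in 39 of 42 members, with a median gap of -0.67, against 46.9% of all tested genes and a median of 0. In A, replicate 2 was below replicate 1 in 36 members (median -0.23), against 49.4% of all tested genes. B, C2 and C3 had 20, 14 and 27 such members, with medians of 0.012, 0.085 and -0.089. The shares of all tested genes there were 50.7%, 49.5% and 50.5%.

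Members without a CHR match in their window also rose. All 27 with a match rose from C1 to C3, as did 8 of the 9 with a window but no match, among them Birc5, Ccnb1 and Mad2l1. With only 1 member falling, the motifs cannot be set against direction.

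Other genes of mitosis moved with the members. Of 80 such genes tested, C1 against B gave 45 lower and 2 higher, C2 against C1 gave 62 higher and 0 lower, C3 against C2 gave 59 higher and 0 lower, and C3 against C1 gave 73 higher and 0 lower (median 3.48). At an unadjusted p under 0.05 limma gave 1, 0 and 0 lower in the last 3 comparisons. Cep55, which guides the final cut between daughter cells, rose by 5.29 ± 0.24 from C1 to C3, Iqgap3 by 4.90 ± 0.19 and Troap by 4.67 ± 0.40. Iqgap3 also fell most from B to C1 (-3.97 ± 0.19), ahead of the centromere gene Cenpm (-2.64 ± 0.28) and Cit, the kinase of the cleavage furrow (-2.13 ± 0.30). The 2 kinetochore genes higher in C1 than in B, named after their values were seen, were Zwint (1.26 ± 0.19) and Dsn1 (1.44 ± 0.25). In B against A 10 of the 80 were lower and 0 higher (5 higher at an unadjusted p under 0.05). The count of lower genes was near the share of all tested genes, of which 12.4% were called lower and 14.5% higher. Fam83d (-1.66 ± 0.26), Psrc1 (-1.59 ± 0.26) and Lmnb1 (-1.33 ± 0.23) had the largest of these differences.

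The list for the anaphase-promoting complex itself held 13 tested core subunits and Fzr1, a co-activator like Cdc20. Of these 14 genes, none was called in 7 of the 8 comparisons, and Anapc1 was higher in C3 than in B (1.01 ± 0.14, adjusted p = 0.000853). From C1 to C3 their median was -0.16, and at an unadjusted p under 0.05 limma gave 3 higher and 2 lower. In that comparison Fzr1 differed by 0.62 ± 0.15, beside 4.93 for Cdc20 and 4.77 for the partner enzyme Ube2c, described above.

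Of 20 cell cycle transcription regulators, 9 rose and 1 fell from C1 to C3 (median 0.91). E2f2 (5.89 ± 0.45), E2f8 (5.15 ± 0.30) and E2f7 (4.75 ± 0.31), of which E2f7 and E2f8 are repressors of the E2F family, led the rises. E2f2 stood at -0.41 and -0.79 for A, at 1.41 and 1.62 for B, at -3.36 and -4.37 for C1, at 0.41 and -0.51 for C2, and at 2.42 and 1.64 for C3. It was higher in B than in A, by 2.12 ± 0.45 (adjusted p = 0.00972). The 1 regulator that fell, named after its values were seen, was Rbl2 (p130), the pocket protein of resting cells (-2.17 ± 0.13). Rbl2 stood at -0.039 and 0.033 for A, at 0.42 and 0.58 for B, at 1.23 and 1.20 for C1, at -0.11 and -0.033 for C2, and at -0.89 and -1.01 for C3. Its C1 libraries were above all others and its C3 libraries below all others.

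DNA replication genes, which act earlier in the cell cycle, were also lowest in C1. All 30 rose from C1 to C3 (median 2.65, beside 4.16 for the mitosis genes), led by Rrm2 (4.61 ± 0.20), the helicase subunit Mcm5 (4.44 ± 0.25) and the origin protein gene Orc1 (4.42 ± 0.31). From B to C1 13 were lower and 1 higher (median -0.76), from C1 to C2 23 rose (median 1.48) and from C2 to C3 21 rose (median 1.24), with 0 lower in either of the last steps, also at an unadjusted p under 0.05. In B against A, 1 of the 30 was higher, the sliding clamp gene Pcna (1.30 ± 0.22), and 1 was lower. The median was -0.41, and of all tested genes 14.5% were higher and 12.4% lower.

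**Figure D4:**
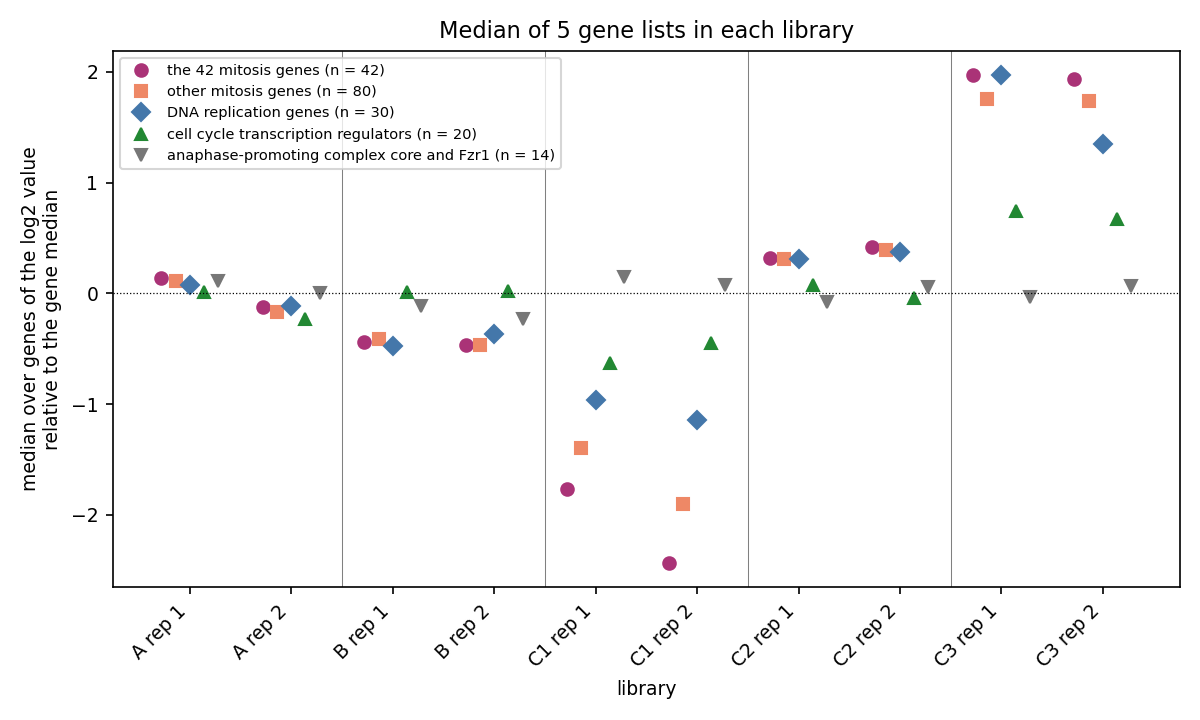
Median log2 value, relative to each gene's own median, of 5 gene lists in each of the 10 libraries. The medians of the 42 mitosis genes, of 80 other mitosis genes and of 30 replication genes are lowest in C1 and highest in C3, and that of the 14 genes listed for the anaphase-promoting complex (13 core subunits and Fzr1) stays between -0.23 and 0.15.

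Inhibitors of cyclin-dependent kinases did not share 1 pattern. Cdkn2a, which encodes p16 and p19ARF, stood at 0.35 and 0.48 for A, at -0.19 and 0.19 for B, at 0.34 and 0.66 for C1, at -2.90 and -3.56 for C2, and at -8.45 and -7.81 for C3. It fell from C1 to C2 (-3.73 ± 0.30) and from C2 to C3 (-4.90 ± 0.30), while the mitosis genes rose in both steps. Cdkn2b (p15) reached 627 and 337 normalised reads in A, but 142 and 143 for B, 102 and 170 for C1, 6.12 and 13.5 for C2, and the floor of 1 in both C3 libraries. Cdkn1c (p57) stood at 241 and 198 normalised reads in C2, 11.5 and 14.5 in B, the floor of 1 in both C1 libraries, and no more than 15.9 in the others. In C1, where the mitosis genes were lowest, 1 of the 7 inhibitors was higher than in B and 3 were lower. Cdkn1c (at the floor), Cdkn1a (-2.31 ± 0.45) and Cdkn2d (-1.10 ± 0.29) were the lower ones, and Cdkn1b (p27, named after its values were seen) was the higher one (1.06 ± 0.20). In C3 against C1, 3 of the 7 were higher and 2 lower (all tested genes: 17.1% higher, 17.7% lower). The higher ones were Cdkn2c (1.61 ± 0.26), Cdkn2d (1.55 ± 0.29) and Cdkn1a (1.47 ± 0.45), and the lower ones Cdkn2a and Cdkn2b. The same 3 were higher in C3 than in C2, where 3 others were lower.

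Reads of 10 members may include those of a neighbour on the opposite strand, because their exons overlap and the library kit does not mark strand. For 7 of these the partner was tested, and from C1 to C3 it differed by less than the member: Exosc9 by 1.11 (Ccna2 4.99), 9930104L06Rik by 0.69 (Cdca8 4.78), Pdzd11 by 0.77 (Kif4 4.36), Oip5 by 2.52 (Nusap1 3.52), Rccd1 by 0.30 (Prc1 4.29), Cdc23 by -0.30 (Kif20a 3.48) and Elovl1 by 0.48 (Cdc20 4.93). The partners of Ube2c (Tnnc2), Plk1 (Gm44985) and Nek2 (Gm38037) were not tested. Exons of Foxm1 and Top2a also overlap those of other annotated genes on the same strand. Ccnb1, Ccnb2 and Kif4 also have annotated pseudogene copies, and how reads were divided among copies was not given in the sources used here.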

How the data were processed

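Gene expression was measured by RNA sequencing in 10 libraries, 2 for each of 5 cell types. Per the submitters' processing notes, TopHat, DESeq and the mouse build mm10 were used; the tools' releases were not given in the sources used here. Deposited values are log2 values, and as the table shows, each gene with any reads was centred by the authors on its median (within 1e-05 of 0 for all 17821 such genes). The authors gave no counts, so no count model was run. Recovered low values were whole reads, within 0.01, for 33.5% to 70.6% of values per library.

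Rows were matched by symbol. Of 36172 genes, 17 with a value that could not be read as a number and 18334 listed at 0 throughout were left out. Genes of known level under 10 normalised reads in all but 1 or no library (3567) were removed, and 14254 were tested. The filter could act on no member, since none had a known level. All 10 libraries were fitted together with limma 3.58.1 in R 4.3.3 (5 residual degrees of freedom, prior 1.93, prior SD 0.211), two-sided, with Benjamini-Hochberg adjustment within each comparison. The fit was tested on simulated data with 200 changed genes. C2 against A was added after the data were seen. The members, lists and tests were chosen with earlier results of these data known. Values per library are given for 21 set genes, for the 3 highest and 3 lowest called members of each comparison and for called members moving against the majority. Of other lists, up to 3 called genes with the largest differences per comparison are named. Alternatives were other scalings, filters, priors, leaving out each library, fits on 4 libraries and a replicate block.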

Additional observations from a re-analysis of the deposited data

How the results depend on the processing

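Over 6048 gene-level values under the alternatives, 5923 kept their direction and their side of the threshold, 70 lost a call, 43 gained one and 12 changed sign. None of the 12 was called under either setting. In fits without 1 library, values for B against A ranged from -0.18 to 0.058 for Bub1 (above 0 without A replicate 1, 0.024, and without B replicate 2), -0.24 to 0.37 for Spc25 (below 0 without A replicate 2 and without B replicate 2, -0.062), -0.74 to 0.21 for Kif4, -0.57 to 0.12 for Nusap1, -0.69 to 0.0078 for Hmmr and -0.48 to 0.045 for Mki67, the last 4 above 0 without A replicate 1. For C2 against A they ranged from -0.10 to 0.52 for Ccna2 and -0.21 to 0.40 for Spc25, both lowest without A replicate 2 (Spc25 -0.013 without C2 replicate 2), and from -0.14 to 0.021 for Ube2c, above 0 without A replicate 1. With no minimum difference, B against A gave 1 member higher and 8 lower. The 1 member lower in C3 than in C1, Pttg1, was not called (0 members) with no filter or with a robust prior. C2 against A gave 8 higher with quantile normalisation, 8 with no minimum difference and 1 in a fit on only its 4 libraries. Leaving out 1 library gave 2 to 4 members lower in B against A, 29 to 38 lower in C1 against B, 34 to 38 higher in C3 against C2, 0 to 1 lower in C3 against C1, 0 to 1 higher and 38 to 41 lower in C1 against A, 40 to 41 higher in C3 against B, and 1 to 5 higher in C2 against A. The causes of these shifts were not tested. A fit with the replicate number as a block left every member count at its value, 0 higher and 3 lower in B against A, 1 and 35 in C1 against B, 41 and 1 in C2 against C1, 38 and 0 in C3 against C2, 41 and 1 in C3 against C1, 1 and 40 in C1 against A, 41 and 0 in C3 against B and 2 and 0 in C2 against A. Over all tested genes, the differences of replicate 2 minus 1 were nearly uncorrelated between types (-0.061 to 0.089). A shared animal, culture or day may affect few genes, so these values cannot decide whether same-numbered libraries were paired. With 2 libraries per type and unknown total counts, differences under the minimum of 1 were left uncalled, and precision is limited by the number of libraries.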
